A study of Mus musculus with 6 samples.

Results

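The thalamic relay spots are the 2029 of 20336 capture spots, the top 10% of each of 6 mouse brain sections, that scored highest for 5 genes of thalamic relay neurons. The members were chosen by the measured levels of these genes, which were Plekhg1, Tnnt1, Synpo2, Ntng1 and Prkcd. For every spot with at least 500 UMIs (unique molecular identifiers, which count captured probe molecules), the level of each gene in CPM (counts scaled to a fixed total per spot) was divided by the mean of that gene over the section, and the 5 ratios were averaged. The rest of the section, 18307 spots in all, served as the comparator. A spot collects RNA from several neighbouring cells of different types, so fewer cells of a type and less RNA per cell cannot be told apart in any value given here.

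The sections were coronal, formalin-fixed and paraffin-embedded, and came from untreated male mice of the wild-type strain C57BL/6J. There were 2 sections at postnatal day 21 (P21), 2 from adult mice of 12 to 15 weeks and 2 from aged mice of 28 months, each pair titled as biological replicates. The P21 and adult sections lay directly on Visium v1 slides, whereas the aged sections were stained on plain glass and their probes moved by a CytAssist instrument to a v2 slide, with a revised probe design by the study's methods. By the growth protocol in the sample labels, the P21 mice were bred in house, the adult mice were bought and the aged mice came from the National Institute on Aging (NIA). The study's methods name only Jackson Laboratory as the source of the mice. The aged libraries shared 0 spot barcodes with the other 4 libraries, which shared 2612 to 2997 barcodes with each other because they carry the same v1 barcode set. Slide version, probe design, mouse source and age therefore cannot be told apart in any comparison of aged with adult sections, nor can mouse source and age in the comparison of P21 with adult.

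The relay nuclei of the thalamus pass sensory and motor signals to the cortex. Their principal cells are glutamatergic neurons that load transmitter through the vesicular transporter VGLUT2 (Slc17a6), depend on the transcription factor Tcf7l2 during development, and switch between tonic and burst firing through low-threshold calcium channels and HCN pacemaker channels. In mice, local inhibition of most of these nuclei comes from the GABAergic reticular nucleus that wraps around them, and the myelinated thalamocortical fibres run through both.

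The relay spots numbered 359 and 331 at P21, 291 and 325 in adult and 367 and 356 in aged sections, here and below with replicate 1 first. Outside the 5 score genes they held between 5537068 UMIs (P21 replicate 2) and 10554588 UMIs (aged replicate 2) per section. The median relay spot held 29336 and 16591 UMIs at P21, 18916 and 20019 in adult and 19303 and 28978 in aged sections. In the rest the medians were 22712, 11695, 16449.5, 14137.5, 19605.5 and 24799 UMIs in the same order, so relay spots were the deeper ones in every section except aged replicate 1. The lowest score among members ran from 2.78 (aged replicate 2) to 4.14 (aged replicate 1), and the highest score outside was 2.76 and 4.14 in those sections, so that the threshold cut a continuous range of scores. The median score of the relay spots, in multiples of the section mean, was 4.23 and 4.42 at P21, 5.50 and 5.34 in adult and 6.00 and 7.6 in aged sections. The score genes chose the spots, and their levels are given as description only. Plekhg1, a guanine nucleotide exchange factor (GRCm38 chromosome 10, 3740364 to 3967303), was at 448 and 476 CPM at P21, 618 and 591 CPM in adult and 1375 and 1241 CPM in aged sections, against 39.9 to 90.2 CPM in the rest. Prkcd, protein kinase C delta, was at 1530 and 1554 CPM, 1970 and 2041 CPM, and 2839 and 2675 CPM at the 3 ages. Dropping any 1 of the 5 genes from the score kept 87.5 to 98.9% of the members of a section.

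**Figure D1:**
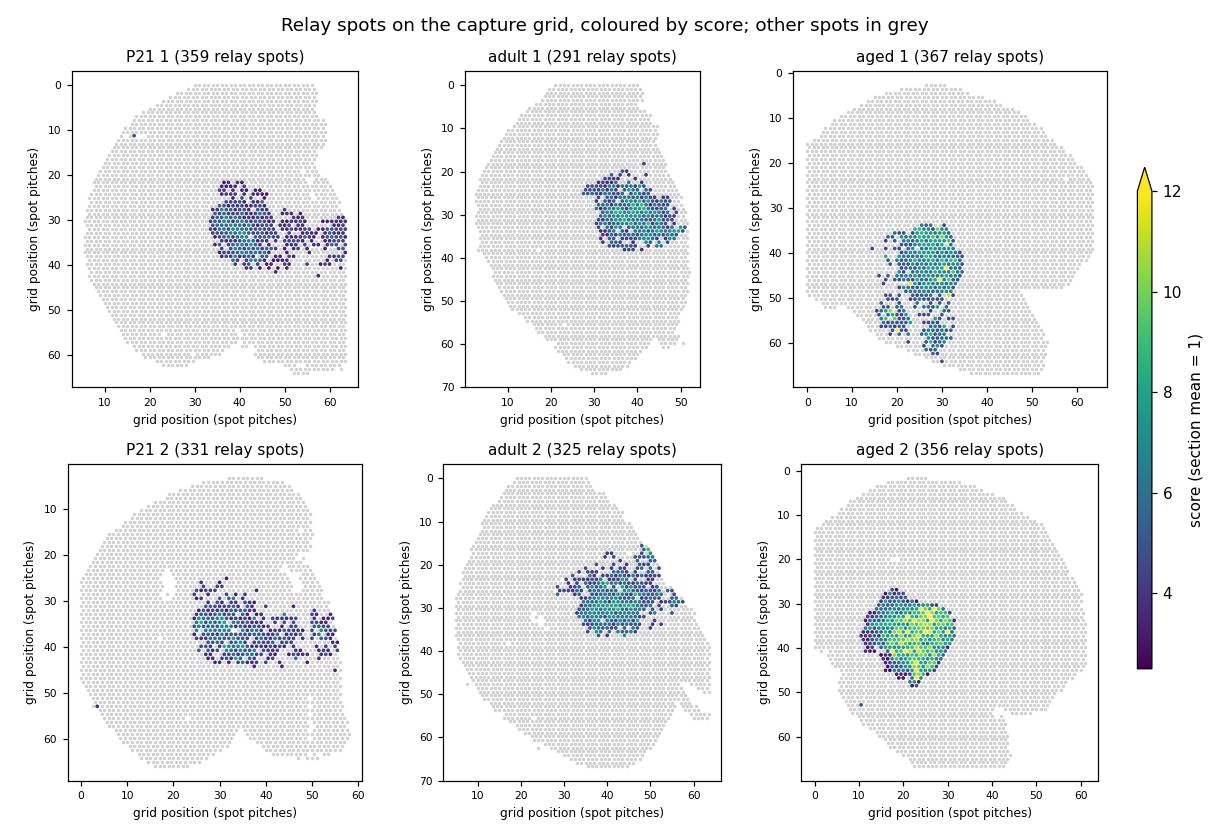
Each panel is 1 section on the capture grid, with both axes in spot pitches. Relay spots are coloured by score (multiples of the section mean, with colours above the top of the scale held at its last shade) and all other spots are grey. In every section the relay spots lie mostly in 1 or 2 compact patches rather than scattered.

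Although position played no part in the score, the relay spots lay together. Of the 6 grid neighbours of a relay spot, 75.1% and 70.9% were relay spots at P21, 81.3% and 75.5% in adult and 77.1% and 91.9% in aged sections. For spots of the rest the share was 0.927 to 3.31%. The largest contiguous patch held 353 of 359, 266 of 331, 287 of 291, 311 of 325, 255 of 367 and 355 of 356 members.

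The other markers of relay neurons bore out the label, by a description and not a test, because the score genes divided these same spots. All 16 genes of a relay neuron list that excluded the score genes stood higher in relay spots than in the rest in all 6 sections. Their summed level was 7494 and 7928 CPM at P21, 8697 and 9284 CPM in adult and 10624 and 9370 CPM in aged sections, against 1615 to 2322 CPM in the rest. Cplx1, a complexin that governs vesicle fusion, was the most abundant of them. Lower in relay spots in all 6 sections were 7 of 7 habenula markers, 8 of 8 markers of cortical and hippocampal excitatory neurons, 6 of 6 choroid plexus markers, 8 of 9 markers of the reticular nucleus and zona incerta, 7 of 8 striatal markers and 7 of 10 hypothalamic markers. The exception among the reticular markers was Pvalb, the calcium buffer parvalbumin. Among endothelial and mural markers, 4 of 11 were higher in relay spots in all 6 sections. The summed level of T and B cell markers in relay spots was 10.9 to 20.6 CPM, led by Ighm. Spots just under the threshold belong to the rest by construction.

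Of 7307 genes at 20 CPM or more in the relay spots of every section, 2952 were higher and 1616 were lower than in the rest in all 6 sections, and 29 exceeded 4-fold in all 6. Levels of relay spots set beside the rest in this and the next paragraph are CPM scaled by TMM over the 12 sums of both kinds of spot, and differ slightly from those scaled over the 6 relay sums in the age comparisons. Abhd12b, a serine hydrolase gene (chromosome 12, 70154142 to 70183887), had the largest ratio judged by its lowest section. It stood at 118 and 109 CPM in P21 relay spots, 234 and 198 CPM in adult ones and 373 and 307 CPM in aged ones, with a log2 ratio to the rest of 3.40 to 7.63. Next were Atp2a1, the calcium pump SERCA1 (chromosome 7, 126445858 to 126463108; log2 ratio 3.19 to 6.81), and Rab37, a small GTPase of secretory granules (chromosome 11, 115091431 to 115162236; 3.15 to 4.81). Eps8l2, an actin regulator, had a log2 ratio of 3.04 to 4.55. Behind these came Plekhd1, Slc12a8, the homeobox gene Shox2, the prostaglandin transporter Slco2a1, the secreted Tafa4 and Epn3, whose lowest log2 ratios lay between 2.37 and 2.80. In all 10 the highest ratio of the 6 belonged to an aged or an adult section.

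**Figure D2:**
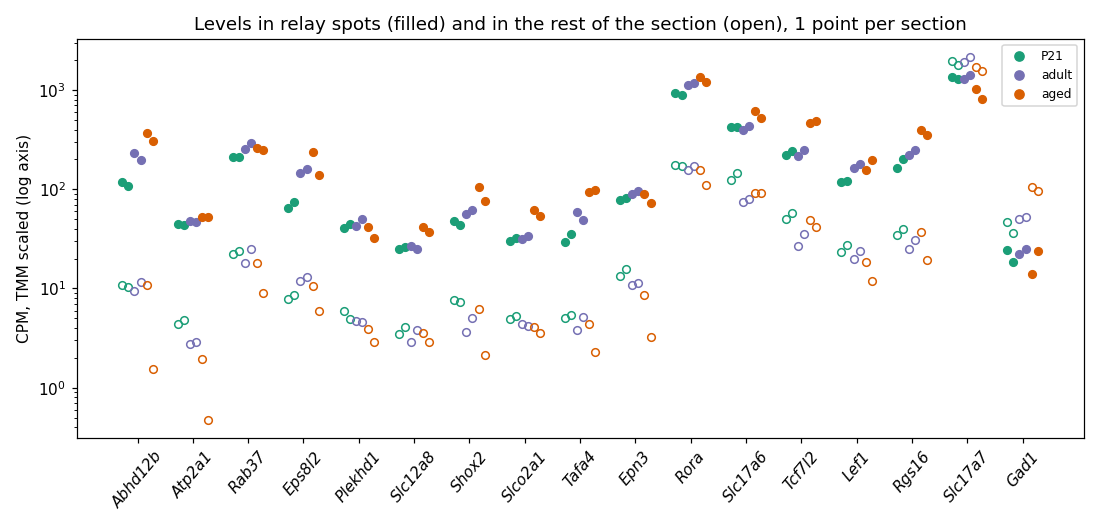
Levels of the 10 genes with the largest ratio to the rest and of 7 marker genes, in CPM scaled by TMM on a log axis, with filled points for relay spots and open points for the rest of each of the 6 sections. The 10 genes, Rora, Slc17a6, Tcf7l2, Lef1 and Rgs16 sit higher in the relay spots of every section, whereas the cortical marker Slc17a7 and the GABA-synthesis gene Gad1 sit lower.

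Of 13 thalamic transcription factors, 11 were higher in relay spots in all 6 sections and 2, Lhx2 and Six3, were lower in all 6. Rora, a nuclear receptor, had log2 ratios of 2.37 to 3.43 over the 6 sections, and Tcf7l2, the mediator of Wnt signalling that marks the caudal thalamus (chromosome 19, 55741820 to 55933654), had 2.07 to 3.55. Slc17a6 (chromosome 7, 51622006 to 51671119) had 1.54 to 2.73. Gad1, which makes GABA, had -2.91 to -0.96. Pvalb (chromosome 15, 78191114 to 78206400) changed sides, with log2 ratios of -0.77 and -0.49 at P21, 0.40 and 0.83 in adult and 1.75 and 1.44 in aged sections.

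The relay spots were not uniform. Ranked by their variance beyond counting noise over the relay spots of each section, the leading genes included Calb2 (calretinin, a calcium buffer; chromosome 8, 110137502 to 110168210), the haemoglobin gene Hbb-bs, the myelin genes Mbp and Mobp, Apod and Calb1 (calbindin). Cplx1, Stum, Pcp4, Camk2n1, Prkcd, Pvalb, Nefm and Tnnt1 were also among the first 20. For Calb2 the value of a relay spot correlated with the mean of its neighbouring relay spots at r = 0.818 and 0.825 at P21, 0.783 and 0.733 in adult and 0.518 and 0.901 in aged sections. Pvalb gave 0.554 and 0.526, then 0.864 and 0.811, then 0.838 and 0.920. Hbb-bs, which marks blood, gave only -0.05 to 0.545. Spots rich in Calb2, and those rich in Pvalb, thus tended to lie beside others of their kind.

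The genes that varied in space fell on opposite sides of Calb2. Over the relay spots of a section, Calb2 correlated with Camk2n1, an inhibitor of CaM kinase II, at r = 0.35 to 0.63, with Stum at 0.32 to 0.58 and with Calb1 at 0.17 to 0.38. Against Calb2 ran Cplx1 (-0.65 to -0.38), Pcp4, a calmodulin regulator (-0.60 to -0.38), the neurofilament gene Nefm (-0.53 to -0.29), Tnnt1 (-0.59 to -0.15) and Pvalb (-0.54 to -0.14). Tnnt1 correlated with Pcp4 at 0.29 to 0.81, with Cplx1 at 0.38 to 0.68 and with Pvalb at 0.27 to 0.48, and its r with Calb1 was -0.55 to -0.40. These are descriptions over the 291 to 367 relay spots of 1 section, which share a library and neighbouring tissue, and Tnnt1 itself took part in choosing them. The range within a section was wide. In aged replicate 2, Pvalb ran from 54.1 CPM at the 10th percentile of relay spots to 1479 CPM at the 90th, with a median of 357 CPM, and in adult replicate 1 from 52.6 to 770 CPM with a median of 217 CPM. Calb2 ran from 0 to 761 CPM in aged replicate 2 and from 58.6 to 562 CPM in P21 replicate 1. Cbln1, a synapse-organising secreted protein of midline and intralaminar nuclei, stood at 173 CPM in adult replicate 1 and 212 CPM in aged replicate 2 but at 15.0 to 49.9 CPM in the relay spots of the other 4 sections. The sections of 1 age thus differed from each other in this gene.

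The libraries differed in how much RNA of other regions the relay spots held, and this must be read beside every age comparison below. Choroid plexus markers in relay spots stood at 30.9% and 35.7% of their level in the rest at P21 and at 25.4% and 40.7% in the adult sections, but at 1.64% and 2.17% in the aged sections. Ttr, the transthyretin that the choroid plexus secretes, was at 802, 874, 860 and 635 CPM in the P21 and adult relay spots and at 43.4 and 40.0 CPM in the aged ones. Neurod6, a transcription factor of cortical and hippocampal neurons, was at 25.8% to 32.5% of the rest on the v1 slides and at 2.24% and 2.93% in the aged sections, and Nrgn, neurogranin, at 24.7% to 29.2% and at 1.51% and 2.24%. The summed cortical and hippocampal markers were at 50.1 to 52.8% on the v1 slides and at 29.6% and 30.6% in the aged sections, with Slc17a7, the vesicular transporter VGLUT1, at 63.9 to 67.7% and at 54.7% and 47.6%. The summed habenula markers went from 32.9 to 36.8% to 8.66% and 7.71%, the striatal ones from 33.5 to 62.1% to 12.2% and 14.3%, and the hypothalamic ones from 44.9 to 56.7% to 6.69% and 19.9%. The summed markers of the reticular nucleus, which borders the relay nuclei, were at 43.7%, 43.2%, 51.5%, 59.1%, 54.1% and 52.2%. Pvalb was the most abundant of them, at a mean of 415 CPM in relay spots. Of 8 reticular genes tested in aged against adult relay spots, Pvalb rose and 5 fell (Sst, Ecel1, Meis2, Slc32a1 and Gad2). The median log2 fold change of the 8 was -1.21. The summed markers of other regions were therefore scarcer relative to the rest in both aged sections than in all 4 v1 sections. Only the reticular sum, which includes Pvalb, was not. This difference cannot be told apart from the slide version.

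**Figure D3:**
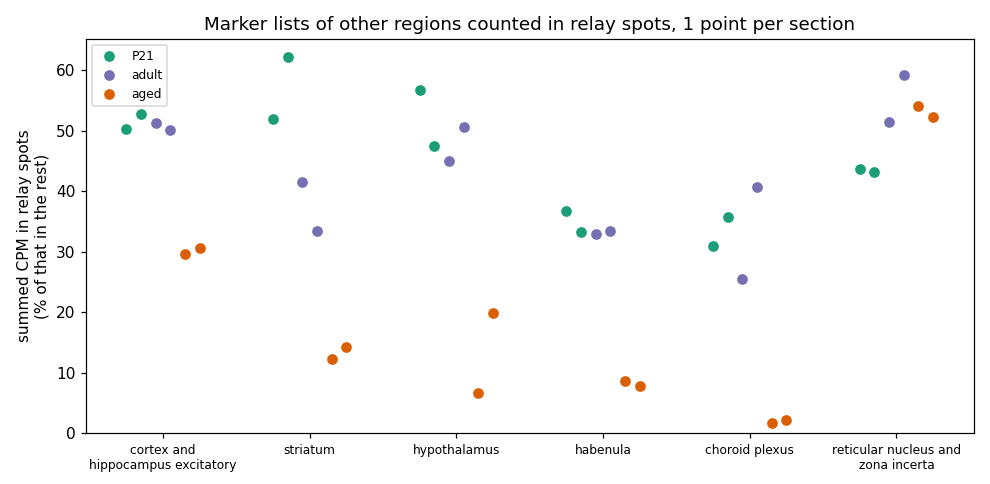
Summed CPM of 6 marker lists of other regions in relay spots, as a percentage of their summed CPM in the rest, with 1 point per section. Both aged sections lie below all 4 sections on v1 slides for every list except that of the reticular nucleus, whose most abundant gene is Pvalb. Of 8 reticular genes tested, 5 fell in aged against adult relay spots and Pvalb alone rose.

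The first age comparison asks what differs in relay spots between P21 and the adult brain, both on v1 slides. Of 11134 genes tested in relay spots, 6.5% were called, that is, changed more than 1.5-fold with an adjusted p below 0.05, with 452 genes (4.06%) higher and 272 (2.44%) lower at P21. The median log2 fold change over all genes tested was -0.01. Most of the myelin and cholesterol synthesis genes tested and 5 of 11 immature neuron genes were higher at P21, and Pvalb and single genes of channels and synaptic vesicles were lower. Of markers of other regions, 3 of 5 hypothalamic genes tested rose and 0 fell, with a median of 1.04. Their list summed to 807 and 634 CPM at P21 against 145 and 520 CPM in adult relay spots. In the striatal, habenula and reticular lists 1 of 7, 1 of 3 and 2 of 8 rose. In the cortical and hippocampal list 0 of 8 rose and 1 fell, Pvalb alone fell among the reticular genes, and 0 of 3 choroid plexus genes were called. Of the 452 higher genes, 75.2% stood below the rest in adult relay spots, as did 37.1% of the 272 lower genes and 52.9% of all genes tested. The number called was 403 without P21 replicate 1 and 427 without P21 replicate 2.

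Most myelin genes tested were higher at P21. Mbp, myelin basic protein, stood at 9934 and 11753 CPM in P21 relay spots against 4894 and 4888 CPM in adult ones, a log2 fold change of 1.15 (SE 0.09, adjusted p = 1.42e-05). Cldn11, a tight junction protein of the myelin sheath (chromosome 3, 31149920 to 31164324), stood at 1017 and 1012 CPM against 236 and 206 CPM (2.20, SE 0.11, adjusted p = 4.66e-07). Both P21 sections lay above both adult sections for each gene. Of 14 mature myelin genes tested, 11 rose and 0 fell, with a median log2 fold change of 1.36, and for 12 of 14 both P21 sections lay above both adult sections, as they did for 30.6% of all genes tested. Not called were Aspa (45.9 and 50.3 against 47.2 and 46.3 CPM), Ermn (114 and 127 against 100 and 103 CPM) and the transferrin gene Trf (563 and 592 against 599 and 614 CPM). Gsn, the actin-severing gelsolin (chromosome 2, 35256380 to 35307892), rose from 47.1 and 40.6 CPM in adult to 281 and 284 CPM in P21 relay spots (2.69, SE 0.10, adjusted p = 5.93e-08).

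Earlier stages of the oligodendrocyte lineage rose in part. Gpr17, a receptor of newly committed oligodendrocytes, was at 99.2 and 104 CPM against 16.0 and 21.3 CPM (2.43, SE 0.13, adjusted p = 9.8e-07). Of 12 genes of precursors and newly formed oligodendrocytes tested, 6 rose, among them Enpp6 (1.76), Tspan2 (1.56) and Sox10 (1.40), and the median was 0.63. Bcas1 was not higher, at 169 and 200 CPM against 231 and 206 CPM. Cholesterol synthesis genes moved in the same direction, with 11 of 15 higher, 0 lower and a median of 0.95. Hmgcs1, which makes the HMG-CoA of the pathway, was at 358 and 400 CPM against 130 and 133 CPM (1.53, SE 0.10, adjusted p = 2.38e-06), and Sqle, squalene epoxidase, at 149 and 140 CPM against 62.0 and 63.9 CPM (1.20). Insig1, Idi1 and Fdft1 were among those not called, at log2 fold changes of 0.23, -0.48 and 0.36.

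Neuronal genes split by kind. Of 11 immature neuron genes tested, both P21 sections lay above both adult sections in all 11, against 30.6% of all genes tested. Called higher were 5 of them, against 4.06% of all genes tested. Marcksl1 led, at 186 and 178 against 45.7 and 32.9 CPM (2.22, SE 0.37, adjusted p = 0.00232 by edgeR). Dpysl5 followed, at 67.8 and 70.9 against 24.0 and 30.2 CPM (1.35). Dcx, at 20.5 and 18.6 against 15.6 and 15.3 CPM, was not called. Marcks, a regulator of the actin cortex, rose by 1.40, but the axon growth marker Gap43 stood at 633 and 689 CPM against 577 and 604 CPM and was not called. In the perineuronal net, which encloses mature neurons, the early components Ncan (1.03), Hapln1 (0.86), Vcan (0.85) and Tnr (0.65) rose, and Hapln4 (-0.65) and Hapln2 (-0.59), link proteins of mature nets and of nodes of Ranvier, fell.

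Parvalbumin was far lower at P21. Pvalb stood at 114 and 109 CPM in P21 relay spots against 364 and 452 CPM in adult ones (-1.87, SE 0.13, adjusted p = 3.7e-06), with no overlap of the sections. Of the GABAergic markers, Slc32a1 was higher at P21 (19.4 and 18.0 against 10.0 and 13.6 CPM; 0.66, adjusted p = 0.0458) and Gad2 (126 and 124 against 93.8 and 103 CPM) was not called. Single genes of channels and synaptic vesicles fell beside it. Kcnab3, a subunit of Kv1 potassium channels, fell by 1.04 on the log2 scale, Syt2, the fast calcium sensor of release, by 0.96, Scn4b, a sodium channel subunit of resurgent current, by 0.76, Vamp1 by 0.69 and Kcnc1, the Kv3.1 channel, by 0.61. These came from lists in which few genes passed, namely 0 higher and 2 lower of 9 fast-spiking potassium channel genes, 0 and 1 of 8 sodium channel genes, and 1 and 2 of 17 synaptic vesicle genes.

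The pacemaker and receptor genes changed in single members. Of 13 burst firing and pacemaker genes, Hcn4 rose (40.4 and 40.4 against 27.5 and 21.9 CPM; 0.72) and Pex5l, the HCN trafficking partner TRIP8b, fell (258 and 268 against 408 and 417 CPM; -0.65). Of 12 GABA-A receptor subunits, Gabrg1 rose (36.9 and 35.3 against 20.05 and 24.4 CPM; 0.70). Of 17 ionotropic glutamate receptor genes, Grik3 (0.72) and the juvenile NMDA receptor subunit Grin3a (0.71) rose, and of 10 metabotropic and muscarinic receptors, Grm2 rose (0.88) and Grm3 fell (-0.71).

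Relay neuron genes themselves were mostly not called. Of 15 tested, 0 rose and Abhd12b and Kcnc1 fell, with a median of -0.33, and both P21 sections lay below both adult sections for 10, against 32.9% of all genes tested. Abhd12b stood at 113 and 106 CPM in P21 against 226 and 190 CPM in adult relay spots (-0.92, SE 0.12, adjusted p = 0.000435). Eps8l2 (-1.14) and Tafa4 (-0.76), from the 10 genes with the largest ratio, also fell, whereas Atp2a1 (42.9 and 42.8 against 46.4 and 45.5 CPM) and Rab37 (204 and 207 against 248 and 284 CPM) were not called. Of 11 thalamic transcription factors tested, the retinoid-related receptor Rorb fell (-0.59), a call just past 1.5-fold that was lost in 15 of 24 alternatives, and the others, Tcf7l2 at 0.00 and Lef1 at -0.51 among them, were not called.

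The remaining large changes were in genes of varied function. Il33, an alarmin of mature oligodendrocytes and astrocytes (chromosome 19, 29925114 to 29960718), had the largest fall apart from Avp among genes at 20 CPM or more, at 17.2 and 20.04 CPM in P21 against 133 and 140 CPM in adult relay spots (-2.89, SE 0.11, adjusted p = 5.93e-08). Ptgds, prostaglandin D synthase, was at 87.3 and 75.8 CPM against 398 and 292 CPM (-2.07), and the heat shock factor Hsf4 (-1.90), the complement-related C1ql2 (-1.58), Upp2 (-1.43) and the immediate early gene Egr1 (-1.27) also fell. The haemoglobin genes Hbb-bt (3.03), Hbb-bs (2.61) and Hba-a2 (2.48) rose, with Hbb-bs at 1156 and 722 CPM against 216 and 93.2 CPM, so haemoglobin RNA differed between the ages as well as between sections of 1 age. Gpr101 (2.57), the pro-apoptotic Bmf (2.34) and the ubiquitin ligase gene Rnf122 (2.24) completed the 8 largest rises. The fall of the hypothalamic peptide gene Avp (-4.18) rested on 1 section, adult replicate 2 at 66.8 CPM against 3.57 CPM in adult replicate 1, and without it the adjusted p was 0.488.

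**Figure D4:**
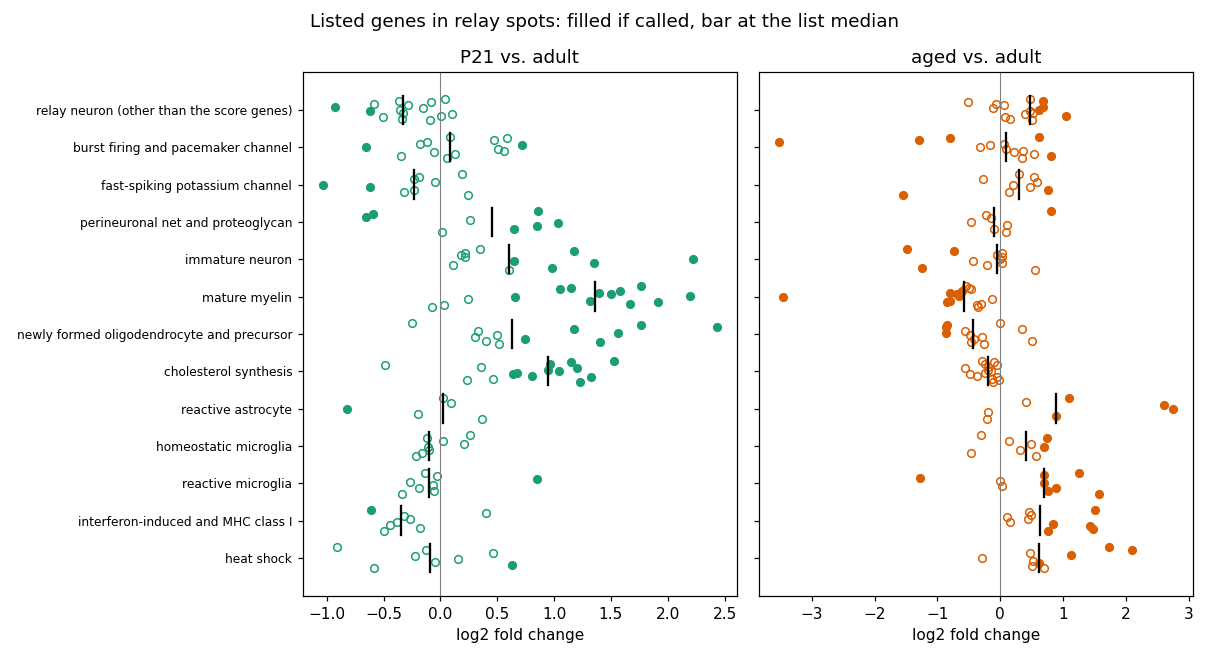
Log2 fold changes in relay spots, P21 against adult and aged against adult, with 1 point per tested gene of each list, filled where the gene was called, and a bar at the list median. The median of the myelin list sits highest in the P21 panel, where that of cholesterol also sits above 0. In the aged panel the medians of the reactive glia and interferon lists sit above 0 while that of myelin sits below.

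To see which of these changes differed from the rest of the brain, the P21 difference in relay spots was tested against that in the rest of the same sections. The difference was called for 0.763% of genes, 46 (0.413%) more positive and 39 (0.35%) more negative in relay spots, while 566 genes (5.08%) were called in the rest itself, 356 (3.2%) higher and 210 (1.89%) lower. Of the myelin genes 0 of 14 were called by edgeR and 0 by DESeq2, although all 14 had a more positive difference with an unadjusted p below 0.05, and the median of the list was 1.04 in the rest. Of the cholesterol genes 0 of 15 were called by either tool, with 8 more positive and 1 more negative at an unadjusted p below 0.05. By edgeR, 85 genes were called in all and 1622 had an unadjusted p below 0.05, whereas without P21 replicate 1 none was called (0, with 1036 unadjusted), without P21 replicate 2 only 1 was, and without adult replicate 1 or 2 there were 26 and 21. With the fold threshold inside the test (glmTreat) 0 were called, and 68 had an unadjusted p below 0.05.

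The differences concerned both neuronal and other genes. Ucp2, a mitochondrial carrier (chromosome 7, 100493337 to 100502020), was higher in relay spots than in the rest at P21 (61.3 and 73.6 against 38.6 and 42.0 CPM) and lower in the adult sections (19.5 and 18.2 against 25.5 and 23.3 CPM), a difference of 1.11. The collagen gene Col6a2 (1.41), Sh3gl3 (0.69), Gas7 (0.66) and Igfbp5 (0.65) differed in the same direction. Pvalb changed more in relay spots than in the rest, where its log2 fold change was -0.61 (difference -1.27, SE 0.14, adjusted p = 0.00227). Gjc1, connexin 45 (chromosome 11, 102799579 to 102819700), went from 45.8 and 52.0 CPM at P21 to 83.1 and 88.4 CPM in adult relay spots, and from 14.3 and 14.7 to 10.96 and 10.85 CPM in the rest (difference -1.24). F2r, a thrombin receptor (chromosome 13, 95601803 to 95618487), behaved alike, with a difference of -1.23, followed by Lhfp (-0.80), Ptgds (-0.73) and Tmem163 (-0.70). With cortical spots in place of the rest, Tmem163 was at -0.04 (adjusted p = 0.946) and Ptgds at -0.44 (adjusted p = 0.417), neither called by edgeR.

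Of 15 relay neuron genes, 5 had a more negative difference in relay spots than in the rest and 0 a more positive one. These were Zic1 (-0.98; chromosome 9, 91358058 to 91365810), Amotl1 (-0.91), Tcf7l2 (-0.79), Slc17a6 (-0.77) and Patj (-0.62). For Slc17a6 the relay level was nearly the same at both ages, at 421 and 428 CPM at P21 and 395 and 434 CPM in the adult sections, while the rest held 124 and 148 CPM at P21 and 75.03 and 79.7 CPM in the adult sections. Zic1 did likewise, with 329 and 349 against 336 and 389 CPM in relay spots and 96.5 and 97.0 against 44.3 and 61.2 CPM in the rest. The contrast of Slc17a6 and Zic1 with the rest was thus smaller at P21, with the change on the side of the rest. Amotl1 changed mostly in the relay spots, at 273 and 300 against 422 and 438 CPM, and less in the rest (72.0 and 78.3 against 56.7 and 63.7 CPM). None of the 5 was called without P21 replicate 1 (adjusted p = 0.0541 to 0.17). With cortical spots in place of the rest, Slc17a6 (-0.34, adjusted p = 0.28), Tcf7l2 (-0.49, adjusted p = 0.196) and Patj (-0.63, adjusted p = 0.336) were not called by edgeR.

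The second age comparison, aged with adult, also compares v2 with v1 slides. Of 11099 genes tested in relay spots, 14.6% were called, 765 (6.89%) higher and 850 (7.66%) lower in the aged sections, with a median log2 fold change of 0.00. Genes of reactive glia, complement and MHC class I and some channels and factors of relay neurons were higher. Myelin genes and genes of other brain regions were lower. Of the 850 lower genes, 86.7% stood below the rest in adult relay spots, against 52.8% of all genes tested and 39.1% of the 765 higher ones. Among the genes at or above the rest in adult relay spots alone, 465 were higher and 112 lower.

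The share of lower genes followed the enrichment of a gene measured at P21, in sections that stand on neither side of this contrast and entered its fit only through the estimate of the spread. Among 344 genes with a log2 ratio of relay spots to rest under -1 at P21, the median log2 fold change of aged against adult was -1.58, and 280 were called lower and 7 higher. Among 5359 genes between -1 and 0 the median was -0.06, with 440 lower and 287 higher. Among 5156 genes between 0 and 1 it was 0.07, with 127 lower and 419 higher. For 202 genes between 1 and 2 it was 0.26 (3 lower, 41 higher) and for 38 genes above 2 it was 0.25 (0 lower, 11 higher). Rises of relay-enriched genes in the aged sections thus stand beside medians of 0.26 and 0.25 rather than 0. The part of the slide version in them cannot be told apart from that of age.

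The 8 largest falls were in genes that stood below the rest in adult relay spots. Synpr, a synaptic vesicle protein abundant in the hippocampus and striatum (chromosome 14, 13284780 to 13616340), stood at 66.9 and 66.1 CPM in adult and 3.73 and 3.84 CPM in aged relay spots (-4.13, SE 0.13, adjusted p = 1.08e-08). Gda, guanine deaminase of forebrain neurons, stood at 67.6 and 60.2 against 2.35 and 3.37 CPM (-4.43), Icam5, the telencephalic adhesion molecule telencephalin, at 79.0 and 59.3 against 2.76 and 4.12 CPM (-4.27), and Ttr at 847 and 632 against 45.0 and 39.7 CPM (-4.13). Itpka (-4.12) and the zinc transporter Slc30a3 (-4.02) fell alike, and their log2 fold changes in the rest were only -0.29 and -0.48. Pmch, a hypothalamic peptide gene (-4.74), was at 21.6 and 266 CPM in the adult sections, and without adult replicate 2 its adjusted p was 0.0822. Avp (-4.44) rested on the same section, with an adjusted p of 0.215 without it. By list, 6 of 8 cortical and hippocampal, 5 of 6 striatal, 4 of 5 hypothalamic, 3 of 3 habenula and 3 of 3 choroid plexus genes tested fell and none rose, the list medians lying between -4.10 and -1.16. Of 8 genes of the reticular nucleus and zona incerta, 5 fell and 1, Pvalb, rose, with a median of -1.21. Set against the rest, 6 of these 8 had a more negative aged difference and 1 a more positive one.

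C4b and Serpina3n, genes of complement and reactive astrocytes, had the largest of the 8 rises named. C4b, a complement component (chromosome 17, 34728380 to 34743882; reads may be shared with its near-identical neighbour C4a), stood at 14.4 and 11.3 CPM in adult and 84.4 and 87.8 CPM in aged relay spots (2.75, SE 0.13, adjusted p = 1.17e-07). Serpina3n, a serine protease inhibitor of reactive astrocytes (chromosome 12, 104406729 to 104414329), stood at 4.76 and 5.15 against 30.8 and 29.9 CPM (2.61, SE 0.17, adjusted p = 1.46e-06). The aged sections lay more than 4-fold above the adult ones for both genes, and the log2 fold changes in the rest were 2.81 and 2.45. The astrocyte filament gene Gfap rose from 99.6 and 93.9 to 192 and 223 CPM (1.10), and Osmr, the oncostatin M receptor, by 0.89. Of 7 reactive astrocyte genes 4 rose and 0 fell, with a median of 0.89. Vim (0.42) and Cd44 (17.5 and 7.43 against 4.55 and 15.7 CPM) were not called.

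Several genes of reactive microglia rose as well. Trem2, a lipid-sensing receptor, went from 11.7 and 10.4 to 28.7 and 24.1 CPM (1.25, SE 0.17, adjusted p = 0.00021) and the lysosomal protease gene Ctsd from 146 and 137 to 277 and 246 CPM (0.89). Of 9 reactive microglia genes tested 6 rose, namely Gpnmb, Trem2, Ctsd, Spp1, Tyrobp and Cd68, and Lpl fell (-1.27), with a median of 0.70. Cst7 and Itgax, at 0.286 CPM or less in the P21 and adult relay spots, were at 3.17 and 3.65 CPM and at 1.66 and 1.5 CPM in the aged ones, too low to be tested. Of 8 homeostatic microglia genes, 2 rose, Tmem119 among them, and the median was 0.41, while Cx3cr1 (30.6 and 27.2 against 30.6 and 32.5 CPM) and P2ry12 (41.8 and 41.0 against 30.8 and 35.8 CPM) were not called. Tmem119 was not called in 12 of 23 alternatives, without aged replicate 2 among them (adjusted p = 0.376). In the complement list C1qb (1.10), C1qc (0.75) and C4b of 5 genes tested rose. Among 10 interferon-induced and MHC class I genes, H2-D1 (21.6 and 20.4 against 47.9 and 67.8 CPM; 1.47), H2-K1 (1.43), B2m (0.84), Psmb8 and Ifit3 rose. Ifit3 was at 5.80 and 15.5 CPM in the aged sections and lost its call without aged replicate 2 (adjusted p = 0.165).

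Other large rises were spread over functions. Cdkn1a, the cell cycle inhibitor p21 that marks stress and senescence, stood at 8.49 and 6.00 CPM in adult and 36.2 and 35.8 CPM in aged relay spots (2.32, SE 0.17, adjusted p = 3.2e-06). At P21 it was also higher than in the adult sections, at 22.7 and 24.4 CPM (1.71). Angpt1, a ligand of the endothelial receptor Tie2, rose by 1.95, Zfp60 by 2.13, the mitochondrial serine transporter gene Sfxn2 by 1.79 and the orphan receptor gene Gpr3 by 1.77. Angpt1 and Sfxn2 rose more in relay spots than in the rest (differences 1.03 and 0.90, adjusted p = 0.00219 and 0.000446), but that of Angpt1 was 0.42 (adjusted p = 0.413) with counts thinned to 1 depth and was not called without adult replicate 2 (0.80, adjusted p = 0.058). Hspa1b, an inducible chaperone (2.10), was at 76.4 CPM in aged replicate 1 and 12.0 CPM in replicate 2 against 10.0 and 10.0 CPM in the adult sections, and without aged replicate 1 its adjusted p was 0.374.

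Myelin genes were lower. Mbp stood at 4894 and 4888 CPM in adult and 3263 and 3650 CPM in aged relay spots, a log2 fold change of -0.50 that did not reach 1.5-fold. Of 14 mature myelin genes, 7 fell and 0 rose, with a median of -0.58, and for 14 of 14 both aged sections lay below both adult sections, against 33.5% of all genes tested. Those that fell were Opalin, Ugt8a (-0.85), Fa2h (-0.81), Mag (-0.79), Cnp (-0.69), Cldn11 (-0.65) and Mog (-0.61). Opalin went from 154 and 142 to 8.28 and 17.7 CPM (-3.45, SE 0.21, adjusted p = 7.36e-07), far beyond the others, with -2.88 in the rest. Gpr17 (-0.87), Tspan2 (-0.87) and Enpp6 (-0.85) of 12 lineage genes also fell, whereas 0 of 15 cholesterol synthesis genes was called by edgeR's quasi-likelihood test or by DESeq2 (5 were lower at an unadjusted p below 0.05), their median being -0.19. In the rest of the sections the median of the myelin list was -0.77. Hapln2, a link protein of nodes of Ranvier, ran against them at 46.0 and 45.0 against 80.3 and 78.6 CPM (0.80).

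Relay neuron genes were higher in part. Tcf7l2 stood at 211 and 236 CPM in adult and 457 and 473 CPM in aged relay spots (1.06, SE 0.09, adjusted p = 1.11e-05), with 214 and 236 CPM at P21. Abhd12b (0.68), Rgs16, a regulator of G protein signalling (0.68), and Shox2 (0.62) also rose, so that 4 of 15 relay neuron genes rose and 0 fell, with a median of 0.47, and for 10 both aged sections lay above both adult sections, against 33.6% of all genes tested. The forkhead factor Foxp2 rose (0.87), and Lhx2, a LIM homeobox factor also of cortex and hippocampus, fell (-0.97). Slc17a6 (0.48) and Zic1 (0.51) did not reach 1.5-fold, and Ramp3, a receptor activity-modifying protein, was at 610 and 534 against 391 and 409 CPM (-0.51).

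Channels moved in opposite directions. Kcnc2, the Kv3.2 potassium channel (chromosome 10, 112271121 to 112467024), stood at 726 and 824 CPM in adult and 1551 and 1087 CPM in aged relay spots (0.77, SE 0.14, adjusted p = 0.00168), and Scn1a, the sodium channel Nav1.1, at 317 and 334 against 630 and 543 CPM (0.85). Cacna1g, the T-type calcium channel of thalamic bursts, rose from 132 and 120 to 192 and 193 CPM (0.61), and Kcnn2, an SK potassium channel, rose as well. Kcnc4, the Kv3.4 channel, fell from 31.3 and 32.3 to 9.25 and 12.3 CPM (-1.54, SE 0.15, adjusted p = 2.74e-05). Cacna1h was called lower at -0.80 (adjusted p = 0.0491), a call that was lost in 16 of 23 alternatives and was at -0.42 without aged replicate 1. Cacna1i, Cacna1h and Kcnc4 all stood below the rest in adult relay spots, with log2 ratios of -1.39 or lower, and Kcnc4 in the rest had a log2 fold change of -0.46. Pvalb rose again, to 764 and 618 CPM in aged relay spots (0.76, SE 0.12, adjusted p = 0.000648), while Gad2 (-1.13) and Slc32a1 (-1.29) fell. The levels of Pvalb did not overlap between any of the 3 ages.

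Among genes at or above the rest in adult relay spots, several large changes were picked out after their values were seen. Ctnnb1, the beta-catenin partner of Tcf7l2, stood at 177 and 185 CPM in adult and 583 and 485 CPM in aged relay spots (1.56). Ogdhl, a subunit of a mitochondrial dehydrogenase, stood at 75.8 and 73.9 against 240 and 180 CPM (1.49). The peptide gene Adm rose by 1.72. On the other side were Nptx2, a neuronal pentraxin (-1.69), the transcription factor gene Creb5 (-1.62) and Nrep (-1.17). The myelin lipid raft gene Pllp went from 159 and 166 to 64.7 and 56.1 CPM (-1.43). In the rest, Ctnnb1, Ogdhl and Adm had log2 fold changes of 1.35, 1.07 and 0.83. Nptx2, Creb5, Nrep and Pllp had -0.89, -1.87, -1.34 and -1.64 there. Among these genes the difference from the rest was called only for Adm (0.81) and Nptx2 (-0.79).

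Set against the rest of the same sections, the aged difference was called for 5.87% of genes, 155 (1.4%) more positive and 496 (4.47%) more negative in relay spots. The rest itself gave 1022 called genes (9.21%), 407 (3.67%) higher and 615 (5.54%) lower. With the genes at or above the rest in adult relay spots alone, 112 were more positive and 12 more negative, and with cortical spots as the comparator in place of the whole rest the total was 636. The negative differences with the smallest p were in genes that stood below the rest in every section, Pmch (-4.80), Synpr (-3.94), Nrgn (-3.75), the vesicle GTPase gene Rab3b (-3.33), Gpr26 (-3.32) and the interneuron peptide gene Sst (-2.43). Pmch was at -2.63 without aged replicate 1, and with cortical spots in place of the rest it was at -0.17 and not called (adjusted p = 0.881).

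The positive differences combined a rise in relay spots with a fall or a smaller rise in the rest. Dab2, an endocytic adaptor (chromosome 15, 6299788 to 6440712), was at 27.9 and 24.99 CPM in adult and 50.3 and 51.9 CPM in aged relay spots, and at 19.2 and 16.3 against 11.8 and 10.1 CPM in the rest (1.66). Adgrf5 (1.22), the neuropeptide Y receptor gene Npy1r (1.19) and the cytokine signalling inhibitor gene Socs6 (1.10) differed likewise. Ptgds was at 412 and 304 against 525 and 525 CPM in relay spots and at 685 and 464 against 489 and 515 CPM in the rest (0.74), but with cortical spots in place of the rest the difference was 0.26 and not called (adjusted p = 0.495). Ogfrl1 went from 399 and 415 to 1022 and 788 CPM in relay spots and from 168 and 190 to 282 and 214 CPM in the rest (0.68). Of 15 relay neuron genes 5 had a more positive difference and 0 a more negative one, among them Abhd12b (1.72, adjusted p = 0.0454), Rgs16 (0.72) and Zic1 (0.59). The rest held Abhd12b at 9.47 and 11.6 CPM in adult and at 10.7 and 1.55 CPM in aged sections, and without aged replicate 2 the difference was 0.77. Without that section Rgs16 was at 0.34 and Zic1 at 0.35, both below 1.5-fold. Calls were lost in 12 (Abhd12b), 10 (Rgs16) and 12 (Zic1) of 23 alternatives, and DESeq2 called 2 of the 15 genes. Kcnc2 (0.62, adjusted p = 9.85e-05) and Pvalb (0.98, adjusted p = 0.000429) also had a more positive difference, though Kcnc2 fell below 1.5-fold without aged replicate 2 (0.53).

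**Figure D5:**
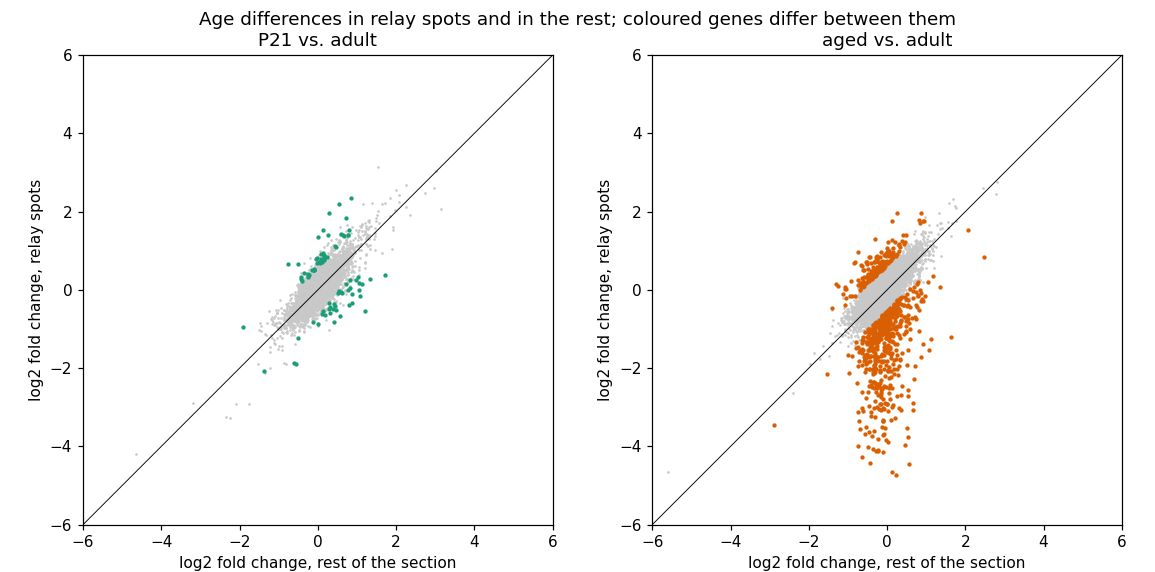
Log2 fold change in the rest (horizontal) against that in relay spots (vertical) for every tested gene, P21 against adult on the left and aged against adult on the right, with genes whose difference was called in colour. In the aged panel a group of genes lies near 0 on the horizontal axis and far below 0 on the vertical axis, Synpr and Ttr among them, and Nrgn lies as far below with a value of 0.67 in the rest.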

How the data were processed

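The authors deposited raw UMI counts per gene and spot from probe-based Visium libraries of 6 sections, made with Space Ranger on mm10 (2.0.0 for P21 and adult, 3.1.1 for aged per the file headers; the submitters' processing notes list Space Ranger 2.1.0 and Seurat 5.1.0). No replicates were pooled. Spots with at least 500 UMIs were kept. Counts were summed per section over relay spots and over the rest without the 5 score genes. The members and gene lists were chosen with earlier results of these data known. Sums were tested in R 4.3.3 with edgeR 4.0.16 and limma 3.58.1 (TMM scaling, glmQLFit, glmQLFTest, Benjamini-Hochberg adjustment over all genes tested, adjusted p under 0.05 and fold change over 1.5) in 1 fit over the 6 sections. Genes passed filterByExpr, detection in over 10% of relay spots at either age compared, and detection in at least 10% of all spots. Relay spots were set against the rest in a fit of 12 sums with the section as a block. Coordinates are those of GRCm38, GENCODE vM21.

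Named genes were the 8 largest called rises and falls per age comparison with at least 20 CPM and no overlap of groups, the 6 called genes with the smallest p per direction of each interaction, the 10 genes with the largest ratio to the rest, and the leading called members of each list. Exceptions in the text are said to be so or complete a list. Alternatives covered scaling, DESeq2 1.42.0, a fold threshold inside the test (glmTreat), filters, other member shares, the score without 1 gene, thinned counts and each section left out. On counts simulated from these sections, 2-fold changes were recovered for 93.5% (P21) and 94% (aged) of genes and for 80% and 84% in the interactions. For 1.5-fold changes the shares were 56.5%, 60%, 21% and 25.5%. Recovered here means an adjusted p under 0.05 in the right direction, without the fold threshold of 1.5 that calls also had to pass. The shares with that threshold were not computed and can only be equal or lower. Section images and the deposited tables of spatially variable genes (Moran's I and its p-values) were not used. The p-values measure the spread between single sections of separate mice. A few items withheld from this text are not reported here.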

Additional observations from a re-analysis of the deposited data

Results flagged for a closer look

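The change between P21 and adult relay spots differed from that in the rest of the same sections for 85 genes by the interaction test in edgeR. More positive in relay spots were Col6a2 (1.41), Ucp2 (1.11), Sh3gl3 (0.69), Gas7 (0.66) and Igfbp5 (0.65), and more negative were Pvalb (-1.27), Gjc1 (-1.24), F2r (-1.23), Lhfp (-0.80), Ptgds (-0.73) and Tmem163 (-0.70), all as differences of log2 fold changes. Each of these 11 genes was among the 85, and each estimate rests on 2 sections per age. With cortical spots in place of the rest, Ptgds (-0.44) and Tmem163 (-0.04) were not called.

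The change between aged and adult relay spots differed from that in the rest for 651 genes by the same test. More positive in relay spots were Dab2 (1.66), Adgrf5 (1.22), Npy1r (1.19), Socs6 (1.10), Ptgds (0.74) and Ogfrl1 (0.68), and more negative were Pmch (-4.80), Synpr (-3.94), Nrgn (-3.75), Rab3b (-3.33), Gpr26 (-3.32) and Sst (-2.43). Ptgds stands in both comparisons, which share the adult sections, so its 2 values are not independent. With cortical spots in place of the rest, Pmch was at -0.17 (adjusted p = 0.881) and Ptgds at 0.26 (adjusted p = 0.495) by edgeR, and neither was called.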

How the results depend on the processing

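Counts of called genes that moved by over 1.5 times are given by setting, beside the full range with 1 section left out. For P21 against adult relay spots (724 called) there were 1099 with no filter and 149 when the fold threshold entered the test (glmTreat), and 284 of the genes at or above the rest in adult relay spots (112 higher, 172 lower, which turns the balance); leaving out 1 section gave 403 to 845. For the same contrast against the rest (85) there were 0 by glmTreat, 164 with the top 5% and 28 with the top 15% of spots as members, 39 of the genes at or above the rest (2 more positive, 37 more negative), and 0 to 196 with 1 section left out. For aged against adult (1615) there were 483 by glmTreat, 577 of the genes at or above the rest (465 higher, 112 lower) and 1400 to 2116 with 1 section left out. Against the rest (651) there were 284 by glmTreat, 400 with the top 15%, 124 of the genes at or above the rest and 481 to 830 with 1 section left out. The share of higher genes moved from 62.4 to 77.9% (P21), from 47.4 to 30.6% (aged) and from 23.8 to 7.4% (aged against the rest) by glmTreat. For P21 against the rest the share more positive, 54.1% as reported, was 72.0% with the top 5% of spots, 28.6% with the top 15%, 43.5% with counts thinned to 1 depth and 9.52% without adult replicate 2.

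DESeq2 called 568, 64, 1368 and 537 genes and plain CPM scaling 721, 76, 1603 and 662 in the same 4 comparisons. The replicate numbers in the labels shared only a number, since the deviations of same-numbered sections correlated at 0.008, -0.085 and -0.229 between ages over 13187 genes. The replicate block gave 681 (P21) and 1564 (aged) called genes, and with the aged numbers crossed 765 and 1659.

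Of the genes named, Insig1, not called at -0.02 in the aged comparison, reversed sign, to 0.092 with the top 15% of spots, 0.0082, 0.0028 and 0.012 with Tnnt1, Synpo2 or Prkcd dropped from the score, and -0.12 to 0.071 with 1 section left out. Of 174 calls of named genes 90 were lost in at least 1 setting. The cause of these shifts was not tested. The crossed block and the restriction to genes at or above the rest were chosen after seeing the data. With 2 sections per age, fold changes of 1.5 were recovered less often than those of 2 in simulated counts.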

Other observations

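Vessel and respiratory chain genes of the relay spots changed in single members, and heat shock genes in several. Of 11 endothelial and mural genes tested in aged against adult relay spots, Mfsd2a, the lipid transporter of the blood-brain barrier (9.004 and 8.29 against 31.9 and 25.1 CPM; log2 fold change 1.71), and Flt1 (0.66) rose, and the tight junction gene Cldn5 (65.6 and 69.5 against 41.9 and 29.9 CPM; -0.93) and Vtn (-0.92) fell. Mfsd2a was also higher at P21 than in the adult sections (24.3 and 22.2 CPM; 1.44), so the adult level was the lowest of the 3 ages. Of 12 respiratory chain genes Uqcrc2 alone was called in the aged comparison (200 and 209 against 381 and 302 CPM; 0.74). Of 9 heat shock genes 4 rose in the aged relay spots, against 6.89% of all genes tested, with a median of 0.62. Both aged sections lay above both adult sections for 8 of 9, against 33.6% of all genes tested. Of the 4, Hspa1b and Hspa1a (25.5 and 8.24 CPM in the aged sections) were highest in aged replicate 1.

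Of 10 immediate early genes tested, 5 had a more negative aged difference in relay spots than in the rest and 0 a more positive one. Fos (15.1 and 8.86 against 34.4 and 33.8 CPM; 1.52), Dusp1 (1.24) and Egr1 (99.4 and 67.9 against 152 and 146 CPM; 0.84) rose in relay spots, while Arc fell (51.8 and 40.3 against 19.9 and 19.9 CPM; -1.20). In the rest, Egr1, Arc and Fos had log2 fold changes of 2.48, 1.64 and 2.07, and the difference was called for all 3 (-1.71, -2.92 and -0.67, adjusted p = 5.58e-08, 2.42e-07 and 0.0323). Arc stood below the rest in adult relay spots. Of 17 ionotropic glutamate receptor genes 0 rose and Grik3 (-1.14), Gria1, Grik4 and Gria2 fell, and of 12 GABA-A receptor subunits Gabra5 fell (49.3 and 54.5 against 13.1 and 17.7 CPM; -1.73).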
